A study of Homo sapiens with 12 samples.

Results

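Intronless protein-coding genes are genes whose transcript can leave the nucleus without any intron having been removed. They were chosen from the protein-coding annotation that the authors deposited (Gencode release 19, build hg19): a gene entered when its symbol had 1 gene row and all its exons merged into 1 block that covered the gene, and symbols starting with HIST (the replication-dependent histones) were left out. This gave 1086 of 19619 protein-coding genes, and 1024 of them had a row in the gene counts. The RNA came from A549, a human lung adenocarcinoma cell line, infected with a lentivirus carrying a control hairpin (shControl) or a hairpin against RNF113A (shRNF113A) and kept in puromycin at 1 µg/ml for 4 days. Cells of each kind were left untreated or received Cisplatin, a platinum compound that crosslinks DNA, at 25 µg/ml for 20 h, which made 4 conditions of 3 libraries. This dose is the one in the sample records, whereas the study's methods give 25 µM for its cell death assays. The 2 × 2 design asks what Cisplatin does, what RNF113A depletion does, and whether each effect depends on the other. The study's methods call the 3 libraries of a condition biological replicates, and the labels do not say whether they were separate cultures, so the p-values below measure the spread between these libraries.

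RNF113A is a zinc finger and RING domain protein of the activated spliceosome, the machine that removes introns from pre-mRNA. Genes without introns bypass that machine, although their transcripts still need a cap, a poly(A) tail and export. Many of them arose by reverse transcription of a spliced mRNA back into the genome, and others are short genes that cells switch on quickly, such as the immediate early transcription factors JUN and JUNB. Large receptor families, among them the olfactory receptors, are also built this way.

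The rule follows the annotation, and the annotation is not always the last word. Of the 1086 genes, 1053 had only single-exon transcripts in the annotation file and 33 had a further transcript with several exons, in which case a transcript that keeps the intron made the single block. A RefSeq transcript with several exons existed for 39 of the 1006 genes that had one in the deposited merged transcript file. By both sources 51 genes had a spliced form and 1035 had none. A later annotation, Gencode release 44, held a protein-coding transcript for 967 of the 1086. Only 725 of these had single-exon protein-coding transcripts alone, so the 51 are a lower bound. GPX1, the cytosolic glutathione peroxidase, and ID1, an inhibitor of basic helix-loop-helix factors, belonged to the 51 and carry some of the largest changes described below, so the ends of their introns are shown here. Each window holds 30 bases read from GRCh37 (the build named hg19), 5′ to 3′ on the strand of the gene, with the first or last 2 bases of the intron in capitals.
GPX1, 5′ splice site, chr3:49395440-49395469, minus strand: tgggcatcagGTgcgccgggcggagcgggg
GPX1, 3′ splice site, chr3:49395171-49395200, minus strand: gctgcccttctctcctgtAGgagaacgcca
ID1, 5′ splice site, chr20:30193607-30193636, plus strand: gacggccgagGTgagatccagatccgacca
ID1, 3′ splice site, chr20:30193836-30193865, plus strand: atttcttctcgttttcacAGgcggcatgcg
Both introns begin with GT and end with AG, and they measured 279 bases in GPX1 and 239 bases in ID1. In the authors' tables of splicing events, ADM, which encodes the vasodilator peptide adrenomedullin, was the single gene of the 1086 with an entry, with 2 skipped exon rows and 4 retained intron rows over 4 comparisons.

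Most intronless genes were silent in these cells. No read pair was assigned to 545 of the 1024 in any of the 12 libraries, another 222 had some reads but did not pass the filter on low counts, and 257 (25.1%) were tested, against 74.7% of the 17637 other protein-coding genes. The largest family shows this plainly: of 341 olfactory receptor genes with a row in the counts, 1 passed the filter (OR1F1), as did 1 of 88 keratin-associated protein genes, 1 of 16 type I interferon genes and 2 of 22 taste receptor genes. Among the 257 tested, 232 had single-exon transcripts alone in both deposited sources and 25 also had a spliced form there. Their exonic length ran from 385 to 9065 bases with a median of 2511. Another protein-coding gene overlapped 62 of them on either strand, and 19 lay inside a gene of the same strand, so that their reads cannot be told apart from those of the host.

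Expression levels are given as CPM (read pairs of a gene, scaled to a fixed total of assigned read pairs per library). Per kb of exon, the median level of the 257 intronless genes was 2.90 CPM, below the 7.35 CPM of the 13177 other protein-coding genes tested. A mean of at least 5 CPM was reached by 144 of the 257, and 65 stayed under 1 CPM. The highest levels per kb of exon belonged to PCBP1, an RNA-binding protein that arose by retrotransposition, at 214 CPM, followed by SFN (14-3-3 sigma) at 204, GPX1 at 162, SF3B5, a small subunit of the splicing factor SF3b, at 118, and the linker histone gene H1F0 at 113. PCBP1 held 403 to 459 CPM in untreated and 388 to 433 CPM in Cisplatin-treated shControl cells, and 353 to 370 and 288 to 305 CPM in the corresponding shRNF113A cells. The lower level with depletion (log2 fold change −0.37 ± 0.06 SE, adjusted p = 0.000274 by edgeR's quasi-likelihood test) did not reach the 2-fold limit. SF3B5 stayed between 77.9 and 95.1 CPM in all 12 libraries.

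Each library had 26220526 to 45721152 read pairs assigned to genes, and the shRNF113A libraries with Cisplatin were the shallowest. The cells expressed the epithelial keratins KRT8 (at least 1936 CPM) and KRT18 (at least 1402 CPM), little KRT19 (0.673 to 5.32 CPM), EPCAM at 3.66 to 97.5 CPM, and the A549 enzyme ALDH1A1 (at least 2980 CPM), had no count for CDKN2A, which A549 cells lack, and had at most 5 counts for PTPRC and 1 for CD3E, markers of blood cells, and 12 for PECAM1 and 10 for VWF, markers of endothelium. Of the other genes listed as markers of blood, stromal or vessel cells, COL1A2 and PDGFRB had at most 3 and 18 counts, while CD68 was present at 27.9 to 74.0 CPM and COL1A1 at 3.32 to 34.8 CPM, and the part of both in the results was not tested. Replicate 2 of the untreated shControl cells stood apart from its 2 partners for several intronless genes, such as SFN and JUN. Values without it are given for some results only.

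RNF113A, the targeted gene, is itself intronless and is transcribed from 1 exon of 1295 bases on chromosome X (119004497 to 119005791, minus strand, hg19), where NDUFA1 overlaps it on the opposite strand. Untreated shControl cells had 20.2, 19.5 and 19.8 CPM and untreated shRNF113A cells 15.3, 15.8 and 16.8 CPM. With Cisplatin the levels were 31.5, 28.9 and 27.7 CPM in shControl cells and 25.9, 24.3 and 29.9 CPM in shRNF113A cells. The 2 groups of libraries were separate without the drug and overlapped with it. The log2 fold change with depletion was −0.31 ± 0.09 (SE, n = 3 against 3, adjusted p = 0.0247) in untreated cells and −0.14 ± 0.09 (adjusted p = 0.233) in Cisplatin-treated cells, and neither reached 2-fold in edgeR's quasi-likelihood test. Both Cisplatin conditions lay above the untreated ones, with a log2 fold change of 0.65 ± 0.07 (adjusted p = 2.36e-06), again under 2-fold. Whether the protein was depleted is not measured here.

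**Figure D1:**
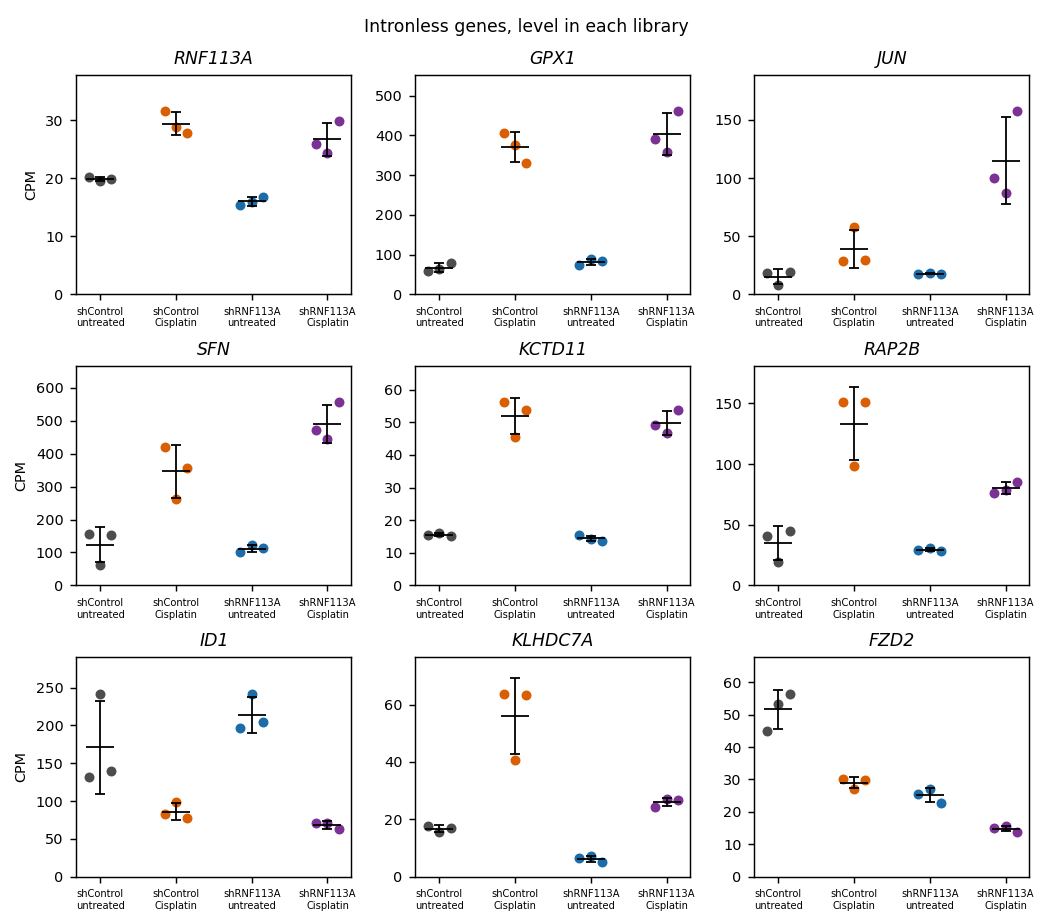
Level of 9 intronless genes (CPM, linear axes from 0) in the 3 libraries of each condition (points), with the mean and SD (black). RNF113A differed little between hairpins, GPX1, JUN, SFN, KCTD11, RAP2B and KLHDC7A were higher with Cisplatin, ID1 was lower with it, and KLHDC7A and FZD2 were lower with depletion.

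Cisplatin raised many more intronless genes than it lowered. With an adjusted p under 0.05 and a change of at least 2-fold (edgeR's quasi-likelihood test, all 12 libraries, additive model of drug and hairpin), 50 of the 257 rose and 13 fell, where 10.3% of all 15352 genes tested rose and 11.2% fell. The median log2 fold change was 0.29 over the intronless genes and 0.03 over all genes tested. Higher values were seen for 175 of the 257 and lower values for 82. Among the 144 intronless genes of at least 5 CPM, 13 (9.03%) rose and 4 (2.78%) fell, where 6.58% of all genes tested at that level rose and 7.92% fell. Most of the calls thus fell on genes of low level, and at the higher level the share that rose lay closer to that of all genes. The 232 genes with single-exon transcripts alone had 45 that rose and 11 that fell, and the 195 that overlapped no other protein-coding gene had 43 and 12. In 51 of the 63 called genes the treated and untreated libraries did not overlap for either hairpin. The matching share over all genes was not computed, so this count is not a result particular to intronless genes.

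GPX1, which detoxifies hydrogen peroxide, changed from 59.3, 62.7 and 79.1 CPM to 406, 377 and 331 CPM in shControl cells and from 73.1, 88.1 and 83.1 CPM to 391, 358 and 461 CPM in shRNF113A cells. No untreated library came near a treated one. Its log2 fold change was 2.39 ± 0.10 (adjusted p = 2.04e-10), and since it has the spliced form shown above, its read pairs need not come from an intronless transcript. SFN, a p53-regulated 14-3-3 protein of epithelial cells, had 156, 62.8 and 152 CPM in untreated and 421, 262 and 356 CPM in Cisplatin-treated shControl cells, and 100, 122 and 114 against 471, 444 and 556 CPM in shRNF113A cells. Its log2 fold change was 1.81 ± 0.21 (adjusted p = 5.09e-06), and 1.69 without the low replicate 2 of the untreated shControl cells.

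Transcription factors of the AP-1 complex and early-response genes formed a small group with 6 members tested. Of these, 3 rose (JUN, IER5 and JUNB) and 1 fell (IER5L), where 10.3% of all genes tested rose and 11.2% fell. JUN, a core AP-1 subunit, had 17.9, 8.15 and 19.5 CPM in untreated shControl cells and 28.8, 57.7 and 29.6 CPM with the drug. The shRNF113A cells went from 17.5, 18.4 and 17.3 CPM to 100, 87.1 and 158 CPM. The groups were separate for both hairpins, and the log2 fold change over both was 2.03 ± 0.31 (adjusted p = 5.03e-05). IER5, an early-response gene linked to the heat shock factor HSF1, gave 1.59 ± 0.14 (adjusted p = 3.98e-07), and JUNB, another AP-1 subunit, which overlaps HOOK2 on the opposite strand, gave 1.03 ± 0.14 (adjusted p = 1.99e-05). The JUNB call rests on the 2-fold limit, and the value was 0.99 without replicate 1 of untreated shControl cells, 0.90 without replicate 2 of treated shControl cells, 0.99 without replicate 3 of untreated shRNF113A cells and 0.96 without replicate 3 of treated shRNF113A cells. JUND had 39.1 to 47.3 CPM untreated and 32.8 to 50.2 CPM treated in shControl cells, and 43.4 to 57.5 against 24.6 to 28.6 CPM in shRNF113A cells. IER3 ran from 74.8 to 175 CPM over all 12 libraries. Among 11 spliced genes of the same family, 7 rose and 0 fell. Their median change was 2.62 on the log2 scale, and that of the intronless members 0.48, beside 0.03 over all genes tested. Among these intronless members, IER3 and JUND also had a spliced form in the deposited sources.

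The stretch before the start of JUN and JUNB is shown because AP-1 genes are known for control at the promoter. Each line gives the 150 bases before the annotated start, 5′ to 3′ on the strand of the gene, read from GRCh37, with any match to TATAAA or CCAAT in capitals (either strand).
JUN, chr1:59249786-59249935, minus strand: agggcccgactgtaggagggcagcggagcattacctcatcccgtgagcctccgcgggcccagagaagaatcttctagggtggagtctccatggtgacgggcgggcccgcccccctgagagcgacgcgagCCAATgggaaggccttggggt
JUNB, chr19:12902160-12902309, plus strand: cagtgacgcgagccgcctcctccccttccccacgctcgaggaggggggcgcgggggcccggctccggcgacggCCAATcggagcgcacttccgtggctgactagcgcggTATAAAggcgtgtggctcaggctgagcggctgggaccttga
JUN held 1 CCAAT, and JUNB held 1 CCAAT and 1 TATAAA. Neither TGACTCA, the letters of a classical AP-1 element, nor TGACGTCA, those of a cyclic AMP response element, occurred in either window. Only exact matches were searched, so variants of either element were not looked for. Over the 250 bases before the start, searched on both strands, CCAAT was present for 26.0% of the 50 genes that rose, 33.1% of the 257 tested and 32.4% of all 19619 protein-coding genes. TGACTCA was present for 4.00%, 2.33% and 3.39% of these, and TGACGTCA for 2.00%, 1.95% and 1.71%. TATAAA was present in 24.1% of the windows of all 1086 intronless genes and in 9.51% of those of all genes, with a median GC content of 44% and 58.8%, while among the 257 tested the TATAAA share was 8.17% and the GC content 61.2%. Such matches describe letters and not bound factors.

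The remaining rises of at least 5 CPM with separate libraries included the Kelch gene KLHDC7A (log2 fold change 1.89 ± 0.13, adjusted p = 2.26e-08), KCTD11, an adaptor of a cullin ubiquitin ligase (1.76 ± 0.07, adjusted p = 1.62e-10), and the small GTPase gene RAP2B (1.69 ± 0.19, adjusted p = 3.05e-06), all by edgeR's quasi-likelihood test. KCTD11 had 15.2 to 16.1 CPM in untreated shControl cells and 45.6 to 56.1 CPM in treated ones, and 13.6 to 15.3 against 46.6 to 53.8 CPM in shRNF113A cells. KCNF1, a modulatory potassium channel subunit, rose by 1.10 ± 0.18 (adjusted p = 0.000111, and 0.95, under the 2-fold limit, without replicate 2 of the untreated shControl cells), and EID2B, a relative of the p300 inhibitor EID1, rose by 1.08 ± 0.12 (adjusted p = 4.05e-06, and 0.98 without replicate 3 of treated shRNF113A cells) on the log2 scale. ADM, the gene with splicing events, went from 42.8 to 53.9 CPM to 82.0 to 121 CPM in shControl cells and from 24.0 to 37.3 CPM to 64.2 to 73.8 CPM in shRNF113A cells (1.03 ± 0.12, adjusted p = 5.92e-06).

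Falls were few. ID1 had 131, 242 and 140 CPM in untreated and 82.7, 98.3 and 77.0 CPM in treated shControl cells. In shRNF113A cells it went from 196, 241 and 204 CPM to 71.2, 71.5 and 62.7 CPM. All treated libraries lay below all untreated ones (log2 fold change −1.32 ± 0.16, adjusted p = 7.94e-06 by edgeR's quasi-likelihood test). The other falls of at least 5 CPM with separate libraries were CEBPD, a C/EBP transcription factor of the acute phase response (−1.24 ± 0.18, adjusted p = 3.51e-05), and C1orf233, an uncharacterised gene (−1.03 ± 0.10, adjusted p = 1.29e-06). The C1orf233 value was −0.93 with library size in place of TMM scaling and −0.99 without replicate 2 of untreated shRNF113A cells, both under the 2-fold limit. IER5L, a relative of IER5, fell by 1.17 ± 0.23 on the log2 scale (adjusted p = 0.000575), but its shRNF113A libraries overlapped, at 27.4 to 42.2 CPM untreated and 15.3 to 30.4 CPM treated.

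Among genes below 5 CPM some with roles in other tissues gave large ratios, and LCE1F, POU3F1 and the other genes of this paragraph are members of the listed families or were chosen after their values were seen. LCE1F, which encodes a protein of the late cornified envelope of skin, had no count in any untreated shControl library and 4.60, 7.70 and 4.83 CPM with Cisplatin, at least 71.8-fold higher when 3 counts per library are taken as the floor. In shRNF113A cells it had 0, 0.0525 and 0 CPM untreated and 0.873, 0.897 and 1.01 CPM treated. POU3F1, a POU domain transcription factor of neural and epidermal cells, was at 0 in the untreated shRNF113A libraries and reached 1.07, 0.557 and 1.09 CPM with the drug, at least 10.8-fold higher on the same floor. LCE1F and POU3F1 passed the filter on low counts only through conditions where they were higher, so their ratios are descriptions. HSPA6, a strictly inducible heat shock protein of the HSP70 family, went from 0.738 to 0.954 CPM to 2.77 to 3.87 CPM in shControl cells and from 0.338 to 0.794 CPM to 3.90 to 4.79 CPM in shRNF113A cells (log2 fold change 2.44 ± 0.23, adjusted p = 5.16e-07). Its near-identical relatives HSPA1A and HSPA1B, to which only uniquely mapped read pairs were assigned, stayed between 36.3 and 61.7 CPM and between 31.5 and 50.3 CPM. In the FOX family of forkhead factors 4 of 9 tested intronless members rose and 1 fell, FOXL2 among the former (1.98 ± 0.21, adjusted p = 2.30e-06), and of 23 spliced members 1 rose and 2 fell, beside 10.3% and 11.2% of all genes tested. The difference was not tested. In the protocadherin beta cluster, whose genes give neurons their surface identity, PCDHB8 and PCDHB5 fell and the other 3 tested did not pass.

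Intronless genes were also set beside spliced genes grouped by total intron length. The 337 spliced genes tested with up to 1 kb of intron had a median log2 fold change of 0.14, the 2814 with 1 to 10 kb had 0.25 and the 7502 with 10 to 100 kb had 0.06, so the 0.29 of the intronless genes lay next to the value of compact spliced genes. The 2500 genes with more than 100 kb had −0.75, and 40.4% of them fell. Shares that rose were 19.5% for the intronless genes, 19% and 16.8% for the 2 compact classes, 8.81% for 10 to 100 kb and 2.6% above 100 kb. The 24 HIST genes that met the single-block rule but were left out had 0 that rose and 4 that fell by the same edgeR test, beside the 10.3% and 11.2% of all genes, and 5 of the 24 had an unadjusted p under 0.05 in either direction. By hairpin, 15 of these 24 fell in shControl cells, where 10.6% of all genes tested fell. In shRNF113A cells 7 rose, where 11.6% of all genes tested rose. Classes differ in level and gene length as well, and their part in these values was not tested.

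**Figure D2:**
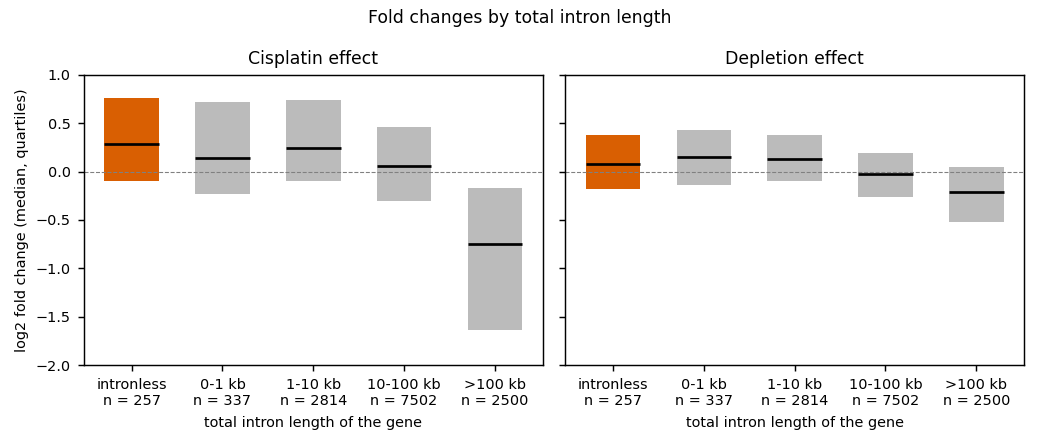
Median (line) and quartiles (box) of the log2 fold change with Cisplatin (left) and with RNF113A depletion (right) for tested genes grouped by total intron length, with the number of genes under each. Intronless genes (orange) lay near the spliced genes with short introns, and genes with more than 100 kb of intron had the lowest medians, −0.75 with Cisplatin and −0.21 with depletion.

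The share of all assigned read pairs that fell on intronless genes was larger after Cisplatin. It was 0.608%, 0.660% and 0.620% in untreated shControl libraries and 0.758%, 0.790% and 0.735% in treated ones, and 0.604%, 0.646% and 0.592% against 0.804%, 0.795% and 0.847% in shRNF113A cells. Every treated library lay above every untreated one. GPX1 and SFN accounted for part of this: without both, the untreated libraries held 0.573% to 0.647% and the treated ones 0.664% to 0.743%. Reads on the strand opposite to these genes made up 0.962% to 1.39% of the read pairs assigned to either strand of them, against 1.69% to 1.99% over all genes.

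**Figure D3:**
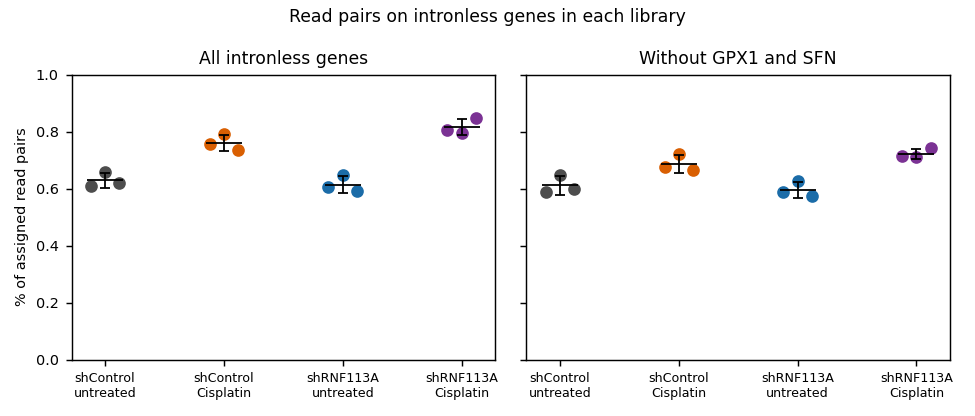
Percent of assigned read pairs on intronless genes in each library (points) with the mean and SD of 3 libraries, over all 1024 genes in the counts (left) and without GPX1 and SFN (right). Treated libraries sit at 0.735% to 0.847% on the left and untreated ones at 0.592% to 0.660%.

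For the 195 tested intronless genes without an overlapping gene, HTSeq counts over gene bodies and over exons are equal by the rule that chose them. Over the 13177 other protein-coding genes the gene-body counts exceeded the exonic ones in every library. The excess was 1.61% to 2.21% in untreated and 1.78% to 4.52% in Cisplatin-treated shControl libraries. In shRNF113A libraries it was 3.05% to 4.05% untreated and 7.55% to 7.89% with Cisplatin.

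Taken by hairpin, Cisplatin raised 40 and lowered 8 of the 257 intronless genes in shControl cells, where 9.16% of all genes tested rose and 10.6% fell. In shRNF113A cells 58 rose and 10 fell, where 11.6% of all genes rose and 11.5% fell. The median log2 fold changes were 0.23 and 0.35, against −0.01 and 0.06 over all genes. The 2 comparisons use different libraries, and 39 genes were called in both, all in the same direction. These made up 81.2% of the genes called in shControl cells and 57.4% of those called in shRNF113A cells. The same overlap was not computed over all genes tested, so whether it is particular to intronless genes is not known. Across the 144 genes of at least 5 CPM, Pearson's r between the 2 sets of log2 fold changes was 0.887, which describes genes within the same fit and not independent replicates.

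GPX1 rose in both backgrounds, by 2.47 ± 0.14 in shControl and 2.31 ± 0.14 in shRNF113A cells on the log2 scale (adjusted p = 2.85e-08 and 4.60e-08 by edgeR's quasi-likelihood test). Other large rises of at least 5 CPM were those of RAP2B in shControl cells, with 1.94 ± 0.26 (adjusted p = 4.57e-05), and JUN in shRNF113A cells, with 2.69 ± 0.35 (adjusted p = 3.16e-05). In the single fall of at least 5 CPM in shControl cells, IER5L changed by −1.70 ± 0.27 (adjusted p = 0.000175). The 3 falls in shRNF113A cells were ID1 (−1.64 ± 0.20, adjusted p = 1.84e-05), CEBPD (−1.49 ± 0.25, adjusted p = 0.000217) and C1orf233 (−1.16 ± 0.14, adjusted p = 1.48e-05).

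**Figure D4:**
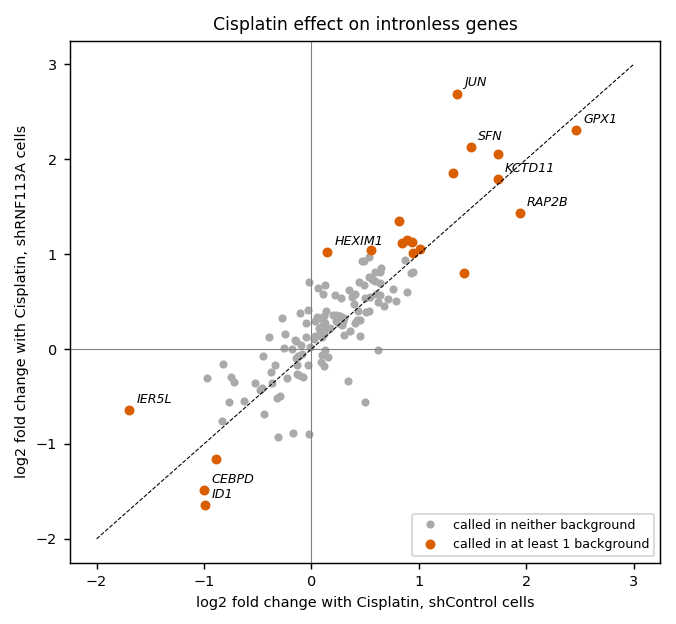
Log2 fold change with Cisplatin in shControl cells (x axis) and in shRNF113A cells (y axis) for the intronless genes of at least 5 CPM that are reported here, with genes called in at least 1 background in orange and the line of equal change dashed. GPX1 (2.47 and 2.31) lies near the line, JUN (1.35 and 2.69) above it and RAP2B (1.94 and 1.44) below it.

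RNF113A depletion changed fewer intronless genes. Over both treatments 26 rose and 12 fell of 257, where 5.47% of all genes tested rose and 5.52% fell, and the median log2 fold change was 0.08 against −0.00 over all genes. Of the 144 genes of at least 5 CPM, 2 (1.39%) rose and 3 (2.08%) fell, where 1.62% and 2.63% of all genes at that level did, so that 33 of the 38 calls were on genes below that level. Genes with single-exon transcripts alone gave 23 that rose and 11 that fell of 232. Genes that lie inside a gene of the same strand were kept in these counts, and the part of host reads was not tested. By intron length the medians ran from 0.15 for spliced genes with up to 1 kb and 0.13 for 1 to 10 kb to −0.03 for 10 to 100 kb and −0.21 above 100 kb. The value of the intronless genes lay between those for 1 to 10 kb and 10 to 100 kb.

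KLHDC7A combined both effects. It had 17.8, 15.4 and 17.0 CPM untreated and 63.8, 40.5 and 63.3 CPM treated in shControl cells, and 6.57, 7.14 and 5.04 CPM untreated and 24.3, 26.9 and 26.7 CPM treated in shRNF113A cells. It thus rose with the drug in both backgrounds from a lower level in depleted cells (depletion effect −1.25 ± 0.12 on the log2 scale, adjusted p = 6.63e-06), and the interaction was 0.31 ± 0.24 (adjusted p = 0.494). FZD2, a Wnt receptor of the Frizzled family, had 45.1, 53.3 and 56.5 against 25.5, 26.9 and 22.7 CPM in untreated cells and 30.02, 27.1 and 29.96 against 15.1, 15.5 and 13.9 CPM in treated cells. Its fall of −1.01 ± 0.07 (adjusted p = 5.26e-07) sits at the 2-fold limit, and it was −0.99 with library size in place of TMM scaling and −0.88 with HTSeq exonic counts, both under the limit. It was also under the limit without replicate 2 (−0.99) or 3 (−0.97) of untreated shControl cells, replicate 3 of untreated shRNF113A cells (−0.97) or replicate 3 of treated shRNF113A cells (−0.99).

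FAM127C, a domesticated retrotransposon gene with close copies on the X chromosome, had 1.46, 3.74 and 1.85 against 4.66, 5.09 and 5.25 CPM in untreated cells and 3.84, 5.22 and 3.89 against 8.73, 9.49 and 10.6 CPM in treated cells (log2 fold change 1.12 ± 0.19, adjusted p = 0.000375). Read pairs shared with its copies cannot be told apart, so this value is uncertain.

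Below 5 CPM the largest depletion effect with separate libraries was that of POU3F3, a POU domain factor of the developing brain. It had 6.32, 5.42 and 4.45 CPM in untreated shControl cells and 0.503, 0.603 and 0.246 CPM in untreated shRNF113A cells, and 4.60, 3.78 and 3.62 against 0.226, 0.155 and 0.225 CPM with Cisplatin. The log2 fold change was −3.85 ± 0.23 (adjusted p = 7.97e-08). Its relatives moved with the drug, since POU3F1 and POU3F2 rose with Cisplatin. CLDN9, a tight junction protein, rose with both (2.40 ± 0.35 for Cisplatin, adjusted p = 3.88e-05, and 2.62 ± 0.35 for depletion, adjusted p = 6.94e-05) and reached 0.970, 0.773 and 1.76 CPM in Cisplatin-treated shRNF113A cells from 0.0276, 0.0255 and 0.0795 CPM in untreated shControl cells. The untreated shControl libraries were too low to carry CLDN9 through the filter on low counts. It was thus tested because of the conditions where it was high, and its values are a description. IFNE, the epithelial type I interferon, rose by 1.37 ± 0.22 (adjusted p = 0.000256) at 0.359 to 1.72 CPM, and the bitter taste receptor gene TAS2R5 by 1.46 ± 0.19 (adjusted p = 5.30e-05).

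In untreated cells 15 intronless genes rose and 10 fell with depletion, where 3.7% of all genes tested rose and 4.96% fell. In Cisplatin-treated cells 24 rose and 11 fell, where 6.9% rose and 5.42% fell. Rises of at least 5 CPM in untreated cells included SOX4 (log2 fold change 1.33 ± 0.16, adjusted p = 0.000116) and KCNF1 (1.16 ± 0.24, adjusted p = 0.00363, and 0.89 without replicate 2 of the untreated shControl cells). The falls included KLHDC7A (−1.42 ± 0.17, adjusted p = 0.000124) and FZD2 (−1.04 ± 0.10, adjusted p = 2.10e-05, and −0.97 or −0.98 without replicate 3 of untreated shControl or shRNF113A cells). In treated cells JUN (1.57 ± 0.33, adjusted p = 0.00276) and FAM127C (1.15 ± 0.27, adjusted p = 0.00462) rose, and H1F0 (−1.25 ± 0.08, adjusted p = 9.89e-07) and KLHDC7A (−1.11 ± 0.16, adjusted p = 0.000315) fell, all by edgeR's quasi-likelihood test.

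Few intronless genes responded to Cisplatin differently in the 2 backgrounds by a direct test. The interaction passed both limits for 1 of the 257 (1.28% of all genes tested passed), and 48 of them had an unadjusted p under 0.05, as did 3318 of the 15352 genes tested. That gene, PPP1R3G, a glycogen-targeting phosphatase subunit, is singled out here because the count is so small, and it had 0.0525 to 0.306 CPM in untreated and 0.158 to 0.636 CPM in treated libraries (2.79 ± 0.67, adjusted p = 0.0387). The call was lost on leaving out 9 of the 12 libraries one at a time (adjusted p up to 0.112).

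A smaller interaction with an adjusted p under 0.05 was found for 4 genes of higher level. The share of all genes tested with such an interaction is not given here. HEXIM1, which holds the elongation kinase P-TEFb inactive in the 7SK particle, had 199, 189 and 203 CPM untreated and 228, 208 and 217 CPM treated in shControl cells. In shRNF113A cells it had 202, 212 and 188 CPM untreated and 391, 367 and 466 CPM treated. The first 3 conditions covered 188 to 228 CPM and the last lay above them, with Cisplatin effects of 0.15 ± 0.09 (adjusted p = 0.182) and 1.02 ± 0.09 (adjusted p = 1.34e-06) on the log2 scale, the latter within 0.92 to 0.99 without 1 of 5 libraries, and an interaction of 0.88 ± 0.13 (adjusted p = 0.00931). TAF7, a subunit of the general transcription factor TFIID that lies between protocadherin clusters, had 140 to 162, 151 to 158, 133 to 136 and 199 to 232 CPM in the same order of conditions and an interaction of 0.58 ± 0.11 (adjusted p = 0.0176).

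MGAT2, a Golgi enzyme of N-glycan branching, had 65.1 to 71.5 CPM untreated and 50.7 to 53.7 CPM treated in shControl cells, and 48.0 to 48.9 against 51.9 to 54.9 CPM in shRNF113A cells, with an interaction of 0.52 ± 0.09 (adjusted p = 0.0136). H1F0, a linker histone of slowly dividing cells with a polyadenylated mRNA, had 391, 383 and 356 CPM untreated and 285, 340 and 284 CPM treated in shControl cells, and 238, 236 and 252 against 126, 128 and 128 CPM in shRNF113A cells. The libraries of the 4 conditions did not overlap, and the Cisplatin effect was −0.31 ± 0.08 in shControl and −0.93 ± 0.08 in shRNF113A cells, with an interaction of −0.62 ± 0.11 (adjusted p = 0.0143). JUN and SOX4 had interactions that did not pass, 1.34 ± 0.47 (adjusted p = 0.125) and −0.87 ± 0.23 (adjusted p = 0.0523). Without replicate 2 of untreated shControl cells they were 1.64 (adjusted p = 0.0231) and −1.10 (adjusted p = 0.00456), and JUN also passed without replicate 2 of treated shControl cells (1.70). SOX4, a transcription factor of progenitor cells, had 29.6 to 46.4 and 30.5 to 43.0 CPM in shControl cells and 89.3 to 91.3 and 46.1 to 52.2 CPM in shRNF113A cells, untreated and treated.

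**Figure D5:**
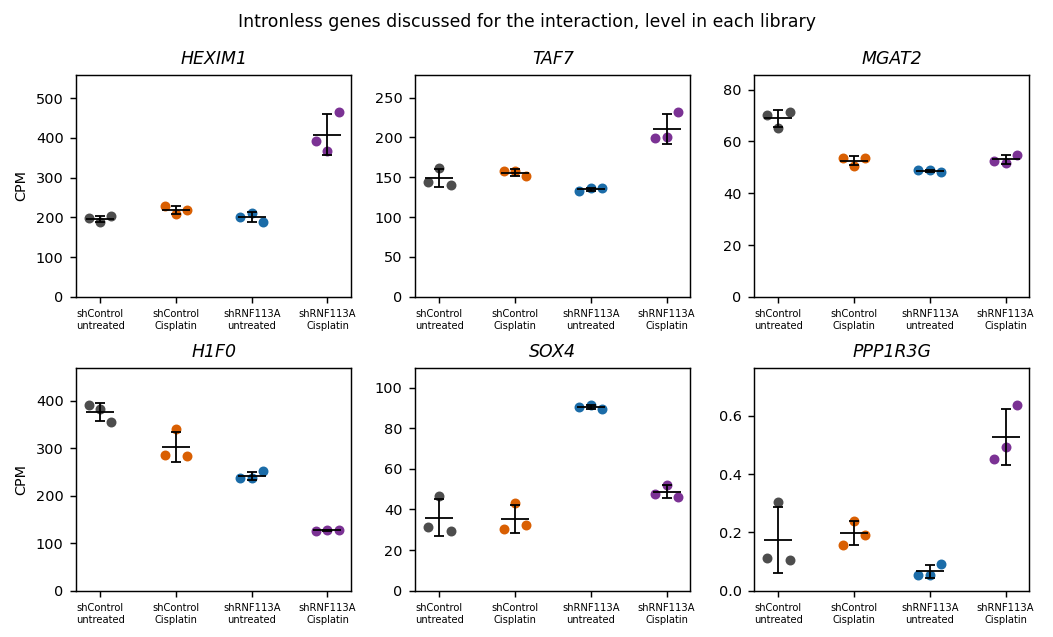
Level of 6 intronless genes (CPM, linear axes from 0) in the 3 libraries of each condition (points), with the mean and SD (black). HEXIM1 and TAF7 were highest in Cisplatin-treated shRNF113A cells, H1F0 was lowest there, and SOX4 was highest in untreated shRNF113A cells.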

How the data were processed

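PolyA-selected RNA of 12 A549 libraries was sequenced as 2 × 76 paired-end reads on a stranded TruSeq protocol, pooled over 2 runs, as the study's methods state. The authors demultiplexed with bcl2fastq 2.17, trimmed to 73 nt, aligned to hg19 with STAR 2.5.2b and deposited STAR's count per gene for uniquely mapped read pairs, from which the count of the gene's own strand was taken, and HTSeq exonic and gene-body counts. Gene and exon coordinates and the names of genes with splicing events came from the authors' deposited annotation and event tables, whose statistics were not used.

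The counts were scaled by TMM, filtered with filterByExpr and fitted in edgeR 4.0.16 (R 4.3.3) by its quasi-likelihood test with Benjamini-Hochberg adjustment over all 15352 genes tested. An additive model of drug and hairpin over 12 libraries gave the overall effects, and a model with 1 mean per condition gave the interaction and the 4 single-condition effects. Genes were called at an adjusted p under 0.05 and a change of at least 2-fold, and every adjusted p in the text comes from these fits. All SE are those of the log2 fold change. In simulated counts for 15352 genes with 200 changed by 2 on the log2 scale, 198 were recovered for Cisplatin, 199 for depletion and 166 for the interaction, with 1, 3 and 8 other genes called.

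Named genes were RNF113A, the 10 largest rises and falls per overall effect and the 3 largest per single-condition effect among called genes of at least 5 CPM with separate libraries, called interactions, the 4 most abundant tested members of each gene family, and the 5 highest levels per kb. Some genes that met this rule are not reported here, and genes outside it were named after their values were seen. The members and lists were chosen with earlier results of these data known. Replicate numbers paired the shControl libraries (correlation of deviations 0.632, 0.731 and 0.480 between treated and untreated). In shRNF113A cells the same values were 0.406, −0.065 and 0.299, and between hairpins they ran from −0.200 to 0.233. The main fits used no pairing. The alternatives were DESeq2 1.42.0, library size scaling, 2 other filters, unstranded or HTSeq counts, no fold limit, other member definitions, a replicate block and leaving out each library. Floors cover counting error only.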

Additional observations from a re-analysis of the deposited data

Results flagged for a closer look

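The response to Cisplatin differed between shControl and shRNF113A cells for 5 intronless genes in the test of the difference itself (interaction in edgeR's quasi-likelihood test with Benjamini-Hochberg adjustment). The interaction log2 fold changes were 0.8775 for HEXIM1, 0.5777 for TAF7, 0.516 for MGAT2, −0.6165 for H1F0 and 2.791 for PPP1R3G. The first 4 lay under the 2-fold limit with 3 libraries per condition, and PPP1R3G lay below 1 CPM in every library. These 5 are counted at an adjusted p under 0.05 alone. The share of all genes tested at that limit is not given, so the count is not a result particular to intronless genes. With the 2-fold limit added, 1.28% of all genes tested passed.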

How the results depend on the processing

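The number of intronless genes called depended most on the fold limit and on genes of low level. The matching shares over all genes are not given for the alternatives below. Their counts thus describe the settings and are not results particular to intronless genes. With no fold limit, 170 genes were called for Cisplatin, 102 for depletion, 5 for the interaction, 129 and 150 for Cisplatin in shControl and shRNF113A cells, and 57 and 81 for depletion in untreated and treated cells. With at least 10 counts in every library these numbers were 31, 16, 0, 25, 37, 16 and 18, and among genes of at least 5 CPM, an alternative chosen after seeing the data, they were 17, 5, 0, 11, 19, 7 and 7. The interaction count was 0 with no filter on low counts, 2 with HTSeq exonic counts and 7 with HIST symbols kept. DESeq2 called 61, 35, 1, 45, 59, 23 and 30 genes in the same order. Its single interaction gene was CITED4, and it gave PPP1R3G no adjusted p. Leaving out 1 library at a time gave 59 to 68, 34 to 43, 0 to 5, 47 to 57, 57 to 73, 21 to 30 and 28 to 40 genes.

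With the replicate block the counts were 64, 39, 2, 50, 68, 27 and 36. In the shControl libraries alone, where the numbers pair the samples, Cisplatin called 40 genes with the replicate block and 36 without the pairing, both chosen after seeing the data.

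The log2 fold change of PPP1R3G with Cisplatin in shControl cells, not called, was 0.16 and became −0.0691 and −0.0929 without replicate 1 or 3 of untreated shControl cells, and 0.8442 without replicate 2. Among values of single genes, 1515 kept direction and side of the threshold, 35 lost the call, 8 gained it and 2 changed sign. The median of the intronless genes for Cisplatin stayed between 0.23 and 0.38, and library size in place of TMM moved the median of all genes from 0.03 to 0.13. The causes were not tested. Genes under 1 CPM, 65 of the 257, are limited by depth. Those near 0 in some conditions could pass the filter on low counts only through the conditions where they were high.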
